A study of Mus musculus with 6 samples.

Results

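A set of 10 genes of the basement membrane was followed in mouse ear fibroblasts: the collagen IV genes Col4a1 and Col4a2, the laminin genes Lama2, Lama4, Lama5, Lamb1, Lamb2 and Lamc1, the nidogen gene Nid1 and Hspg2, which encodes perlecan. They were taken by symbol from a table of 57010 Ensembl gene identifiers, and all 10 were present and passed the filter on low counts. The cells were dermal fibroblasts from the ear, cultured for 3 days at 500000 cells per sample on a polyacrylamide hydrogel of 1 kPa, on a polyacrylamide hydrogel of 20 kPa, or on glass, which served as the control. Each substrate had 2 libraries of polyadenylated RNA. The amount of crosslinker sets the stiffness of such a gel; kPa, kilopascal, is its unit, and glass is by far the stiffest of the 3 surfaces. The series concerns the effect of stiffness on the epigenetic state during conversion of fibroblasts into neurons, but the labels of these libraries name no reprogramming factor. They give no strain, genotype, sex or age of the mice, and are silent on whether same-substrate libraries are separate animals or cultures. The p-values therefore set a difference between substrates against the spread between same-substrate libraries, and that spread may be technical.

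The basement membrane is a thin sheet of extracellular matrix that lies under epithelia and endothelia and around muscle, fat and Schwann cells. Laminins are trimers of an alpha, a beta and a gamma chain. Many of them polymerise on the cell surface, where integrins and dystroglycan serve as receptors. Collagen IV, a trimer of alpha chains that is crosslinked into a network, gives the sheet its strength, and nidogen and the heparan sulfate proteoglycan perlecan connect the laminin and collagen networks. In skin, dermal fibroblasts supply part of these components from below, and keratinocytes and vascular cells supply the rest.

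Library totals ran from 17669006 to 21350111 counts, so that a floor of 3 counts lay at 0.141 to 0.17 CPM, the counts scaled to a common library size (TMM). Such floors reflect counting error alone, and PCR copies were not told apart. Each of the 10 genes had between 241 and 47991 counts in every library. Together they took 0.593% and 0.599% of the counts on 1 kPa, 0.545% and 0.52% on 20 kPa, and 0.56% and 0.498% on glass. In glass replicate 2, 5.1% of counts went to an identifier without a symbol, against 0.947% to 2.9% in the remaining libraries. All 10 fibroblast markers examined were present in every group, with a summed level of 50100 to 51200 CPM on 1 kPa, 52200 to 55000 CPM on 20 kPa and 36000 to 38700 CPM on glass; 9 were higher and 1 lower on 1 kPa than on glass, and 8 higher and 1 lower on 20 kPa. The shares over all tested genes were 23.0% higher and 22.0% lower on 1 kPa, and 22.3% higher and 19.6% lower on 20 kPa. In RNA from whole cultures, fewer cells of a type and less RNA per cell cannot be told apart.

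The genes did not move as a block. On 1 kPa, Col4a1, Col4a2, Lamb1, Lama4 and Nid1 were higher than on glass, Lama2, Lama5, Lamb2 and Lamc1 were lower, and Hspg2 was not called. On 20 kPa, Col4a1, Col4a2 and Lamb1 were higher than on glass, Lama2, Lama5, Lamb2, Lamc1 and Hspg2 were lower, and Lama4 and Nid1 were not called. Genes were called by edgeR's quasi-likelihood test at a Benjamini-Hochberg adjusted p under 0.05 over 16093 tested genes. For 1 kPa against glass, 9 of the 10 genes were called, where 45.0% of all tested genes were called, 23.0% higher and 22.0% lower. For 20 kPa against glass 8 of the 10 were called, against 41.8% of all genes, 22.3% higher and 19.6% lower. The median log2 fold change of the 10 genes was 0.1 for 1 kPa and -0.2 for 20 kPa, beside 0 and 0.02 over all tested genes. Both comparisons use the same glass libraries. Over the 3 substrates all 10 genes differed, as did 51.2% of all tested genes, with adjusted p from 8.5e-10 for Lamb1 to 0.00049 for Nid1.

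**Figure D1:**
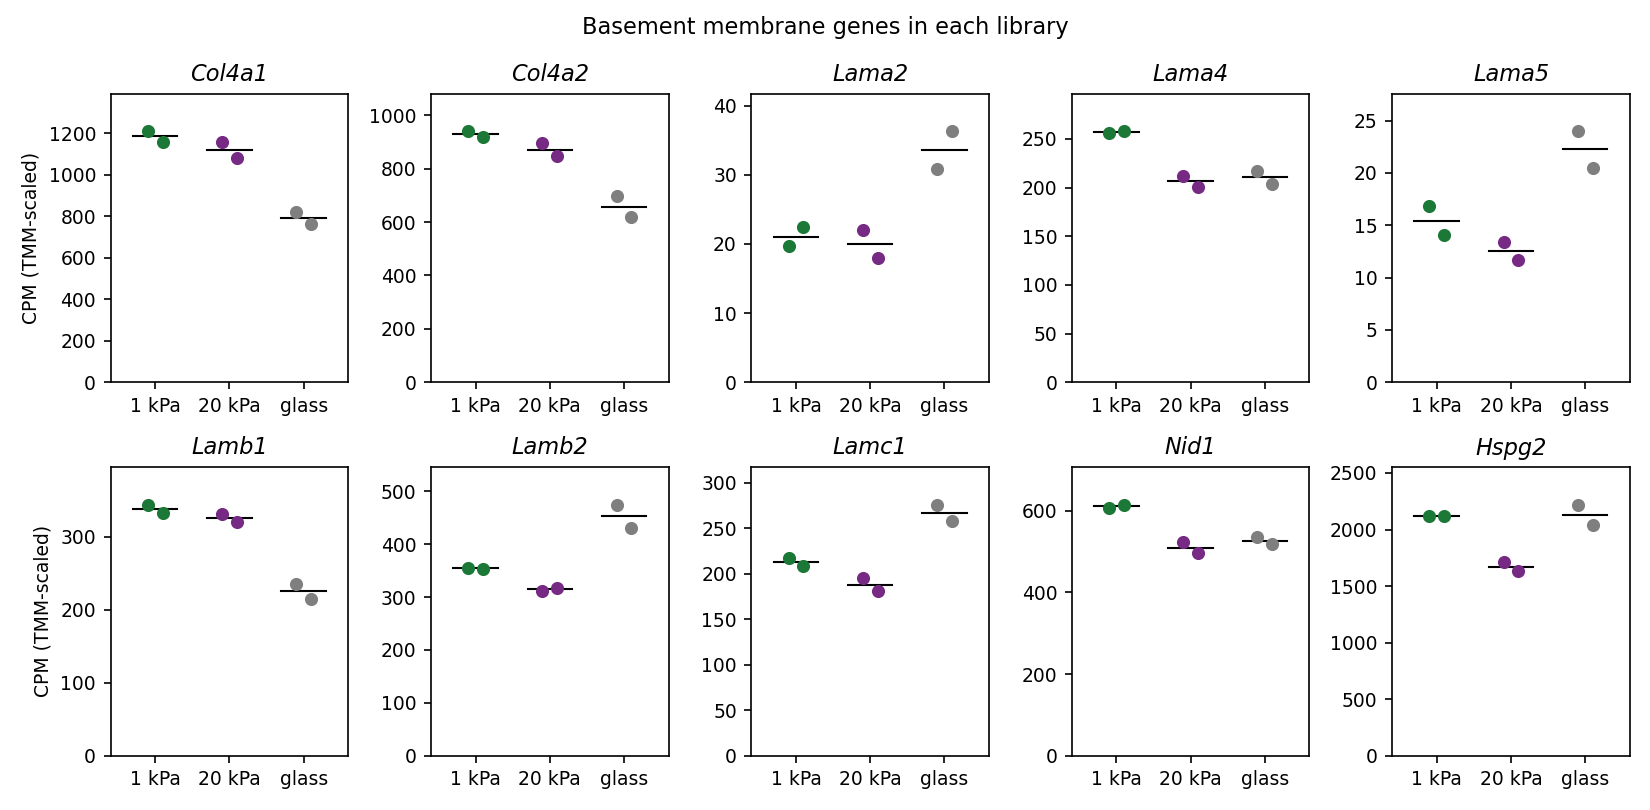
Level of each basement membrane gene in each library, in CPM on TMM-scaled library sizes (vertical axes start at 0), for 1 kPa, 20 kPa and glass; points are libraries and the line is their mean (n = 2). Col4a1, Col4a2 and Lamb1 lie higher on both gels, Lama2, Lama5, Lamb2 and Lamc1 lie higher on glass, and Hspg2 is lowest on 20 kPa.

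Col4a1 and Col4a2 encode the alpha 1 and alpha 2 chains that make up the widespread form of collagen IV. They lie head to head on chromosome 8 of GRCm38, Col4a1 (ENSMUSG00000031502.12) from 11198423 to 11312826 on the minus strand and Col4a2 (ENSMUSG00000031503.14) from 11312805 to 11449287 on the plus strand. Their annotated first exons overlap by 22 bases. The RefSeq promoter windows of both genes, 250 bases before to 50 bases after the start site in GRCm38.p6, are shown because the genes are read in opposite directions out of 1 shared stretch of DNA. Capitals mark the 78 bases that lie in both windows, which read as reverse complements of each other. The Col4a1 window is chr8:11312777-11313076 on the minus strand and the Col4a2 window chr8:11312555-11312854 on the plus strand.
Col4a1: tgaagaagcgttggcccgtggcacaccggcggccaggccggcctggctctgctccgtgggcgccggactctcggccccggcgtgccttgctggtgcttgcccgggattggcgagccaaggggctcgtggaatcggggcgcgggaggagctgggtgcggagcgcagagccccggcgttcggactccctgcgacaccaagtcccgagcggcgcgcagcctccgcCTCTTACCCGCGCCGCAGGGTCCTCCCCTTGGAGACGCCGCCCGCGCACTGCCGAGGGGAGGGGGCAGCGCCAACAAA
Col4a2: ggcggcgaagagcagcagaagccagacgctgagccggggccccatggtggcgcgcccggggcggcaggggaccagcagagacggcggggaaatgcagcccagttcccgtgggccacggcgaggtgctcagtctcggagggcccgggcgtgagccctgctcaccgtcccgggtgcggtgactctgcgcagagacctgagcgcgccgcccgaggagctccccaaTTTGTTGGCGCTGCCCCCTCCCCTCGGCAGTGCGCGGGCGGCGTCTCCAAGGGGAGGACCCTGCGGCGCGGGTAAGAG

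The windows are rich in G and C, at 74.0% for Col4a1 and 73.7% for Col4a2, beside a median of 52.7% over 32851 RefSeq windows of the same length. Both strands of each window were searched for GGGCGG (the core of a GC box), CCAAT (the CCAAT box), TATAAA (the TATA box), TGANTCA (an AP-1 motif), GGAATG (a TEAD motif) and ACGTG (the core of a hypoxia response element), and no motif is contained in another. GGGCGG occurred in 1 place in the Col4a1 window and in 3 places in the Col4a2 window. The Col4a1 match and 1 of the Col4a2 matches are the same bases, in the stretch that lies in both windows. CCAAT occurred in 1 place in each, beginning at position -145 from the Col4a1 start and at position -32 from the Col4a2 start. Neither window held TATAAA. Of all windows, 35.7% held GGGCGG, 37.4% held CCAAT and 13.6% held TATAAA.

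Col4a1 was at 1210 and 1160 CPM on 1 kPa, 1160 and 1080 CPM on 20 kPa, and 820 and 761 CPM on glass. Every gel library lay above both glass libraries. It rose by 0.58 on the log2 scale on 1 kPa (SE 0.06, edgeR adjusted p = 2.2e-09) and by 0.50 on 20 kPa (SE 0.06, edgeR adjusted p = 4.7e-08), which is 1.5-fold and 1.41-fold. Col4a2 was at 941 and 920 CPM on 1 kPa, 898 and 846 CPM on 20 kPa, and 697 and 619 CPM on glass. Again no gel library overlapped the glass libraries, a pattern that 71.0% of all tested genes showed for 1 kPa and 67.5% for 20 kPa. Col4a2 rose by 0.50 (SE 0.06, edgeR adjusted p = 7.1e-08) on 1 kPa and by 0.41 (SE 0.06, edgeR adjusted p = 2.8e-06) on 20 kPa. Between the gels neither gene was called, with log2 fold changes for 20 kPa over 1 kPa of -0.08 (SE 0.06) for Col4a1 and -0.09 (SE 0.06) for Col4a2.

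The ratio of both collagen IV transcripts varied little. Per kilobase of exon, Col4a1 over Col4a2 was 1.14 and 1.12 on 1 kPa, 1.14 and 1.13 on 20 kPa, and 1.04 and 1.09 on glass. The lowest ratio on a gel, 1.12, lay above the highest on glass, 1.09. The ratios between chains are given as descriptions, with no test.

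The laminin beta chains moved in opposite directions. Lamb1 (ENSMUSG00000002900.18, chromosome 12 from 31265234 to 31329644, plus strand) encodes the beta 1 chain of most embryonic and mesenchymal laminins. Lamb2 (ENSMUSG00000052911.10, chromosome 9 from 108479736 to 108490530, plus strand) encodes the beta 2 chain, which is known from the neuromuscular junction, the kidney glomerulus and vessel walls. Their RefSeq promoter windows (GRCm38.p6) are shown for this contrast, chosen after the values were seen, as chr12:31265043-31265342 and chr9:108479612-108479911, both on the plus strand. Capitals mark GGGCGG or its reverse complement.
Lamb1: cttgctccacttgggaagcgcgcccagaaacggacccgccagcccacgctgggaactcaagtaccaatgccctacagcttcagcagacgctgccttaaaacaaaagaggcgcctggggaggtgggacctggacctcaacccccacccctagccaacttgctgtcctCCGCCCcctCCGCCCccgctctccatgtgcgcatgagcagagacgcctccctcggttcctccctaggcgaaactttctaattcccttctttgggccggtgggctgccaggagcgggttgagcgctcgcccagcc
Lamb2: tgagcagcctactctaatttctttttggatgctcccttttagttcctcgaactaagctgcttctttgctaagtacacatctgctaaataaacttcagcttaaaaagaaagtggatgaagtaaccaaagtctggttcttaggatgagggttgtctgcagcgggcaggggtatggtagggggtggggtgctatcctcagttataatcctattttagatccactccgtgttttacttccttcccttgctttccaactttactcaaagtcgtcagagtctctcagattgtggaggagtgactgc

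The Lamb1 window held 2 such matches and 63.7% G and C. The Lamb2 window held none of the 6 motifs and 44.0% G and C. Among the 8 genes with a window, 7 held GGGCGG and 4 held CCAAT. Col4a1 and Col4a2 share a GGGCGG match in the stretch common to both of their windows. The motif GGAATG was present in the Nid1 window and in 14.7% of all windows, and TGANTCA and ACGTG were in no window of the 8 and in 7.81% and 19.6% of all windows. A match describes letters and is not a binding site, and a window without one says nothing of the factor.

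Lamb1 was at 344 and 333 CPM on 1 kPa, 331 and 320 CPM on 20 kPa, and 235 and 215 CPM on glass. All gel libraries lay above the glass libraries, and those of both gels lay close together. The rise was 0.59 on the log2 scale on 1 kPa (SE 0.06, edgeR adjusted p = 1e-09) and 0.53 on 20 kPa (SE 0.06, edgeR adjusted p = 8.7e-09). Lamb2 was at 356 and 354 CPM on 1 kPa, 312 and 318 CPM on 20 kPa, and 475 and 431 CPM on glass. Here the glass libraries were the highest and the 20 kPa libraries the lowest, with no overlap between any of the 3 groups. Of all tested genes, 71.0% had no overlap between 1 kPa and glass, 67.5% between 20 kPa and glass, and 60.1% between the gels. Lamb2 fell by 0.35 on 1 kPa (SE 0.06, edgeR adjusted p = 8.9e-06) and by 0.52 on 20 kPa (SE 0.06, edgeR adjusted p = 1e-08).

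The balance of both beta chain transcripts also separated gels and glass. Per kilobase of exon, Lamb1 over Lamb2 was 0.593 and 0.576 on 1 kPa, 0.65 and 0.617 on 20 kPa, and 0.304 and 0.306 on glass. As a share of both, Lamb1 made up 37.2% and 36.6% on 1 kPa, 39.4% and 38.2% on 20 kPa, and 23.3% and 23.4% on glass. With the length of the longest transcript in place of all exons, the ratios were 0.941 and 0.915 on 1 kPa, 1.03 and 0.98 on 20 kPa, and 0.482 and 0.485 on glass. Every gel library lay above both glass libraries. The size of the ratio depends on the length used. A change of length scales the ratio of every library alike, so it cannot alter their order.

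**Figure D2:**
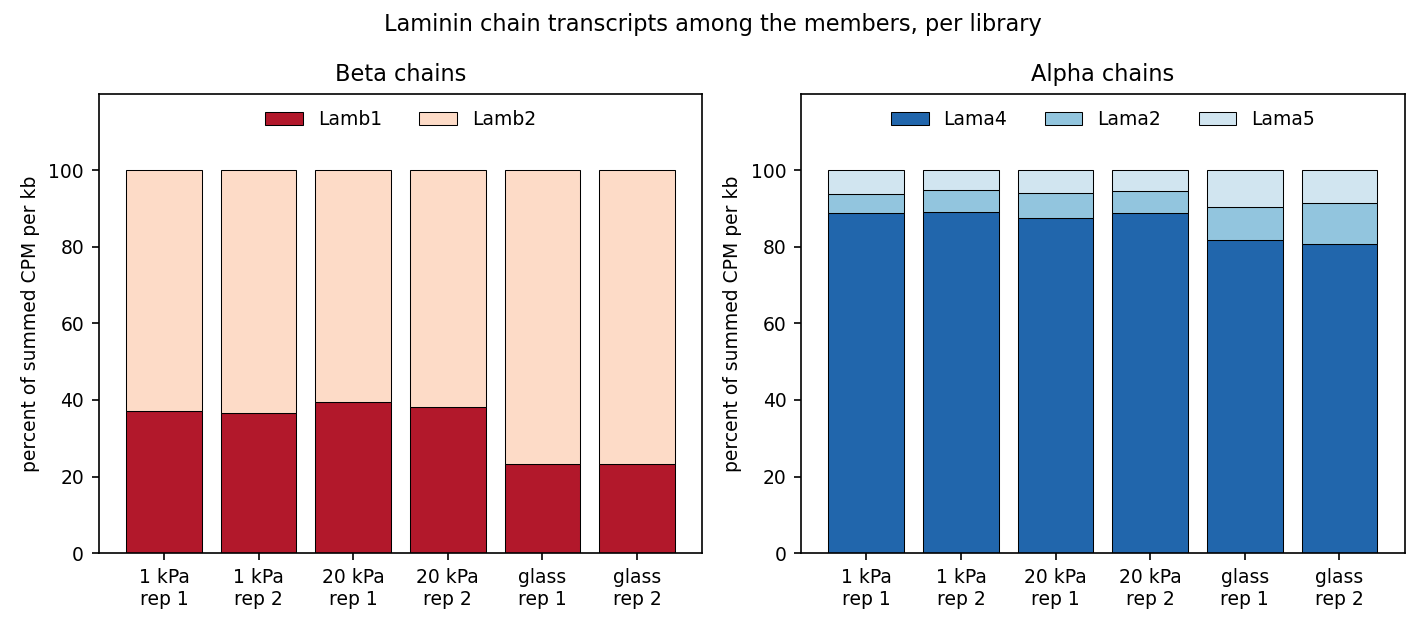
Laminin chain transcripts per library as a percentage of the summed CPM per kilobase of exon, with beta chains on the left and the 3 alpha chains among the members on the right. Lamb1 makes up 36.6% to 39.4% of the beta chains in gel libraries and 23.3% to 23.4% in glass libraries, and Lama4 is the largest alpha share in every library.

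Lamc1 (ENSMUSG00000026478.15, chromosome 1 from 153218922 to 153332786, minus strand) encodes gamma 1, the gamma chain shared by most laminins. It was at 217 and 209 CPM on 1 kPa, 195 and 181 CPM on 20 kPa, and 276 and 258 CPM on glass. The order was that of Lamb2, with glass highest and 20 kPa lowest and no overlap, and the same shares of all tested genes apply. Lamc1 fell by 0.33 on 1 kPa (SE 0.06, edgeR adjusted p = 3.3e-05) and by 0.51 on 20 kPa (SE 0.06, edgeR adjusted p = 2.3e-08). Lamb1 and Lamc1, whose products join in the same trimers, thus lay on opposite sides of 0 in each comparison with glass.

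Among these alpha chains, Lama4 had the highest level per kilobase. It lies on chromosome 10 from 38965515 to 39110188 on the plus strand (ENSMUSG00000019846.12) and encodes alpha 4, a chain of laminins of vessels and of mesenchymal cells. Lama4 was at 255.5 and 257.6 CPM on 1 kPa, 211.7 and 201.3 CPM on 20 kPa, and 217.3 and 203.7 CPM on glass. The 1 kPa libraries stood above the rest, and those of 20 kPa and glass overlapped. It rose by 0.28 on 1 kPa (SE 0.06, edgeR adjusted p = 0.00014) and had a log2 fold change of -0.03 on 20 kPa (SE 0.06, edgeR adjusted p = 0.74).

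Lama2 and Lama5 were scarce. Lama2 (ENSMUSG00000019899.18, chromosome 10 from 26980036 to 27619758, minus strand) encodes alpha 2, the chain of muscle and peripheral nerve laminin whose loss causes a congenital muscular dystrophy. It was at 19.7 and 22.4 CPM on 1 kPa, 22 and 18 CPM on 20 kPa, and 30.8 and 36.3 CPM on glass. Both gels overlapped each other and neither overlapped glass. Lama2 fell by 0.67 on 1 kPa (SE 0.10, edgeR adjusted p = 3.3e-06) and by 0.74 on 20 kPa (SE 0.10, edgeR adjusted p = 6.9e-07). An antisense gene overlaps 3.86% of its exonic length, and whether strand was used in counting is not given in the sources used here.

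Lama5 (ENSMUSG00000015647.10, chromosome 2 from 180176373 to 180225859, minus strand) encodes alpha 5, a chain of many epithelial and vascular basement membranes. It was at 16.8 and 14.1 CPM on 1 kPa, 13.4 and 11.7 CPM on 20 kPa, and 24 and 20.5 CPM on glass. Each substrate occupied its own range, with glass highest. Pairs of substrates were separated for most tested genes, as given above for Lamb2. Lama5 fell by 0.53 on 1 kPa (SE 0.11, edgeR adjusted p = 0.0003) and by 0.84 on 20 kPa (SE 0.12, edgeR adjusted p = 6e-07). On 20 kPa it was at 0.559 of the glass level. The falls of Lama5 and Lama2 on 20 kPa differed by less than the sum of their SEs. Of the alpha chain transcripts of these 3 genes per kilobase, Lama4 made up 88.8% and 89.1% on 1 kPa, 87.4% and 88.7% on 20 kPa, and 81.8% and 80.8% on glass. Lama4 over Lama5 per kilobase was 14.3 and 17.3 on 1 kPa, 15 and 16.3 on 20 kPa, and 8.53 and 9.36 on glass, so that no gel library overlapped glass. With the longest transcript as length it was 28.6 and 34.5 on 1 kPa, 29.9 and 32.5 on 20 kPa, and 17 and 18.7 on glass. This change of length also scales every library alike and cannot alter their order.

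Nid1 and Hspg2, whose products link the laminin and collagen networks, were both lower on 20 kPa than on 1 kPa. Nid1 (ENSMUSG00000005397.9, chromosome 13 from 13437551 to 13512269, plus strand) was at 608 and 615 CPM on 1 kPa, 523 and 497 CPM on 20 kPa, and 536 and 518 CPM on glass. It was highest on 1 kPa without overlap, while the ranges of 20 kPa and glass overlapped. Nid1 rose by 0.21 on 1 kPa against glass (SE 0.06, edgeR adjusted p = 0.0025), a call lost without 1 kPa replicate 2 (edgeR adjusted p = 0.056), and was at -0.05 on 20 kPa (SE 0.06, edgeR adjusted p = 0.54). An antisense gene overlaps 2.06% of its exonic length.

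Hspg2 (ENSMUSG00000028763.19, chromosome 4 from 137468769 to 137570630, plus strand) had the most counts of the 10 genes. It was at 2120 CPM in both 1 kPa libraries, 1710 and 1630 CPM on 20 kPa, and 2220 and 2040 CPM on glass. The 1 kPa values fell within the range of glass, and the 20 kPa libraries lay below all others. The log2 fold change was -0.01 on 1 kPa (SE 0.06, edgeR adjusted p = 0.93) and -0.35 on 20 kPa (SE 0.06, edgeR adjusted p = 2.6e-05).

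Set directly against 1 kPa, the 20 kPa gel had lower levels of 5 of the 10 genes and a higher level of none by edgeR (6 of the 10 had an unadjusted p under 0.05). DESeq2 and limma-voom also called 5 lower. Over all tested genes 18.9% were called, 8.94% higher and 9.92% lower, 60.1% had libraries that did not overlap, and the medians were -0.18 for the 10 genes and 0 for all genes. Hspg2 fell by 0.34 (SE 0.06, edgeR adjusted p = 0.00011), Lama4 by 0.31 (SE 0.06, edgeR adjusted p = 0.00014) and Nid1 by 0.26 (SE 0.06, edgeR adjusted p = 0.00098). Without 20 kPa replicate 2 the call of Nid1 was lost (edgeR adjusted p = 0.057). Lamc1 fell by 0.18 (SE 0.06, edgeR adjusted p = 0.027) and Lamb2 by 0.17 (SE 0.06, edgeR adjusted p = 0.036), and both calls were lost with total counts in place of TMM or when any gel library was left out, with adjusted p from 0.053 to 0.32. Lama5 was at -0.31 (SE 0.12, edgeR adjusted p = 0.076; 0.049 and 0.046 without glass replicate 1 and glass replicate 2), Lama2 at -0.07 (SE 0.11, edgeR adjusted p = 0.73) and Lamb1 at -0.06 (SE 0.06, edgeR adjusted p = 0.55). With total counts, the calls of this comparison over all genes were 60.8% higher, against 47.4% with TMM, and 3 of the 10 genes were lower.

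**Figure D3:**
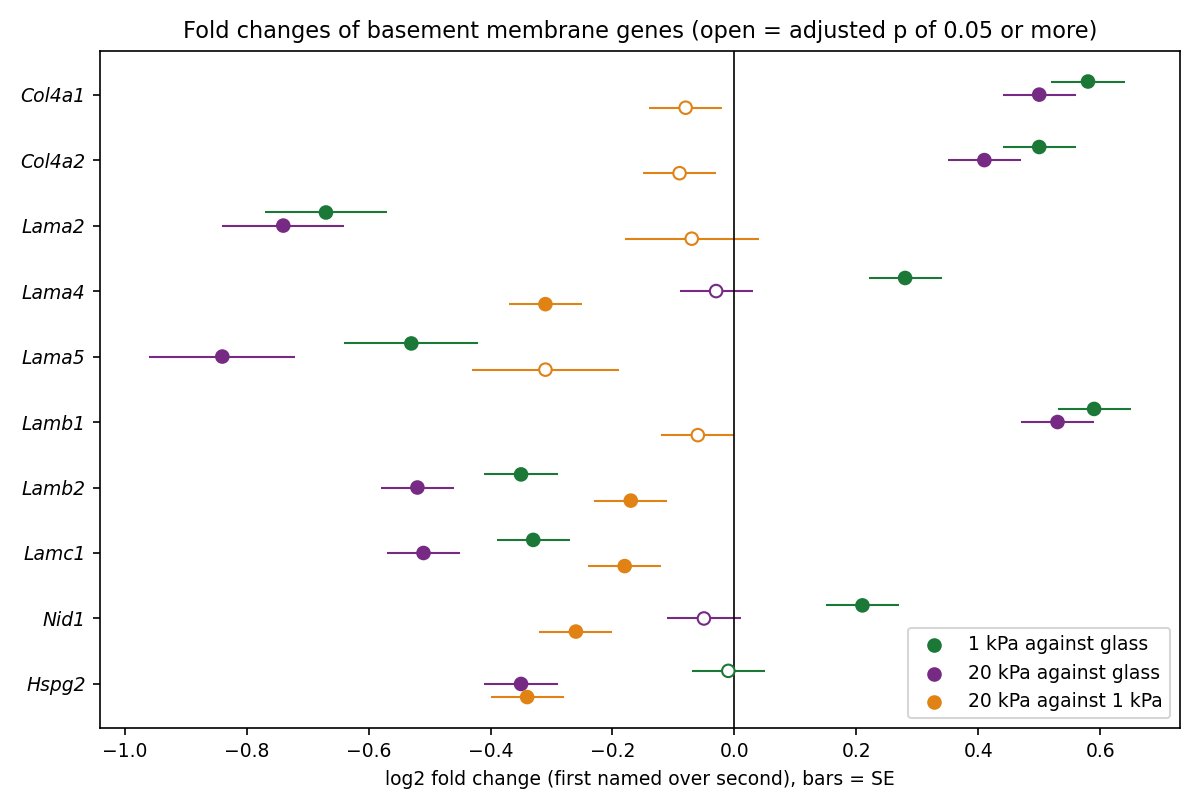
Log2 fold changes of the 10 genes with SE (horizontal axis; first substrate named over the second) for the 3 comparisons; open points have an adjusted p of 0.05 or more. Col4a1, Col4a2 and Lamb1 lie right of 0 against glass on both gels, Lama2, Lama5, Lamb2 and Lamc1 lie left of it, and every point of 20 kPa against 1 kPa lies left of 0.

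Per kilobase of exon, the genes spanned a wide range of levels. On 1 kPa the order was Col4a1 at 159 ± 4.3, Hspg2 at 148 ± 0.11, Col4a2 at 141 ± 2.2 and Nid1 at 88 ± 0.7 CPM per kilobase (mean ± SD, n = 2), followed by Lamb2, Lamb1, Lamc1 and Lama4, with Lama5 at 1.36 ± 0.17 and Lama2 at 1.29 ± 0.12. On 20 kPa the first places were taken by Col4a1 at 150 ± 7.3, Col4a2 at 132 ± 5.6 and Hspg2 at 117 ± 4.3 CPM per kilobase. On glass Hspg2 came first at 149 ± 8.6, ahead of Col4a1 at 106 ± 5.6 and Col4a2 at 99.4 ± 8.4 CPM per kilobase. The levels of Col4a1 and Col4a2 on glass lay within their SDs of each other, as did those of Lama2 and Lama5 in each group with this length. Lamb1 lay at 34.1 ± 0.84, 32.8 ± 0.8 and 22.7 ± 1.5 CPM per kilobase on 1 kPa, 20 kPa and glass, and Lamc1 at 25.8 ± 0.68, 22.7 ± 1.2 and 32.3 ± 1.5. Lamb1 thus stood above Lamc1 on both gels and below it on glass. With the longest transcript as length, Lamb1 stood above Lamc1 on all 3 substrates. Lama2 was then at 2.19, 2.08 and 3.49 CPM per kilobase on 1 kPa, 20 kPa and glass and Lama5 at 1.36, 1.1 and 1.96, so that Lama2 lay above Lama5 throughout. Lama4 was then at 42.4, 34.2 and 34.8 CPM per kilobase in that order and Lamc1 at 28, 24.6 and 35.1, so that Lama4 lay above Lamc1 on both gels.

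**Figure D4:**
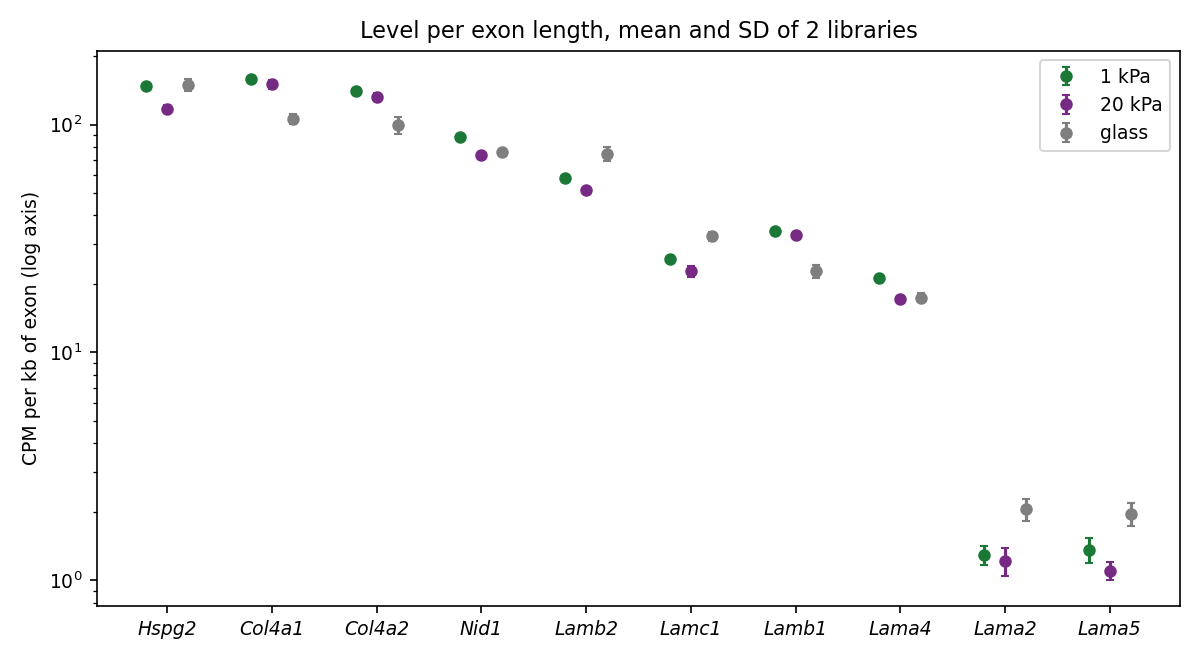
Level of each gene per kilobase of annotated exon (CPM per kb, log axis) on 1 kPa, 20 kPa and glass, as mean and SD of 2 libraries, ordered by the level on glass. Hspg2, Col4a1 and Col4a2 lie near or above 100 CPM per kb, and Lama2 and Lama5 near 1 to 2.

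The genes whose levels across the 6 libraries were most like those of each member were taken from 10944 genes by the distance between log2 values centred on each gene's mean. Nearest to Col4a1 was Lamb1, at a distance of 0.05, followed by Pld3 and Itpr2. Col4a2 stood at rank 13 from Col4a1, at a distance of 0.11, Lama4 at rank 2335 and Lama2 at rank 10187. The nearest genes to Lamb1 were Itpr2, Pld3 and Col4a1, those to Lamb2 were Lasp1, Prelid1 and Lpcat3, and those to Hspg2 were Ctps, Fkbp2 and Ptprk. These distances describe 6 libraries on 3 substrates.

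Of 24 other genes of basement membranes, 22 were tested. On 1 kPa against glass, 10 rose and 5 fell (median log2 fold change 0.39), and on 20 kPa 11 rose and 5 fell (median 0.29), beside 23.0% higher and 22.0% lower over all genes on 1 kPa and 22.3% and 19.6% on 20 kPa. Smoc1 and Smoc2, calcium-binding proteins related to Sparc, Frem1, which anchors the epidermal basement membrane, and Tinagl1, a matricellular protein, had the smallest p over the 3 substrates. Smoc1 was at 128 ± 8.9, 150 ± 4.6 and 11.4 ± 1.3 CPM on 1 kPa, 20 kPa and glass, a rise of 3.47 (SE 0.08) on 1 kPa and of 3.71 (SE 0.08) on 20 kPa. Smoc2 was at 154 ± 6.5, 314 ± 12 and 107 ± 1.3 CPM, and rose by 0.52 (SE 0.06) on 1 kPa and 1.55 (SE 0.06) on 20 kPa. Frem1 rose by 2.73 (SE 0.11) and 2.39 (SE 0.12), and Tinagl1 fell by 1.39 (SE 0.06) and 1.17 (SE 0.06), on 1 kPa and 20 kPa. Between the gels, 8 of the 22 were higher and 3 lower on 20 kPa, beside 8.94% higher and 9.92% lower over all genes. The 8 became 5 with DESeq2 and were fewer when any gel library was left out.

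**Figure D5:**
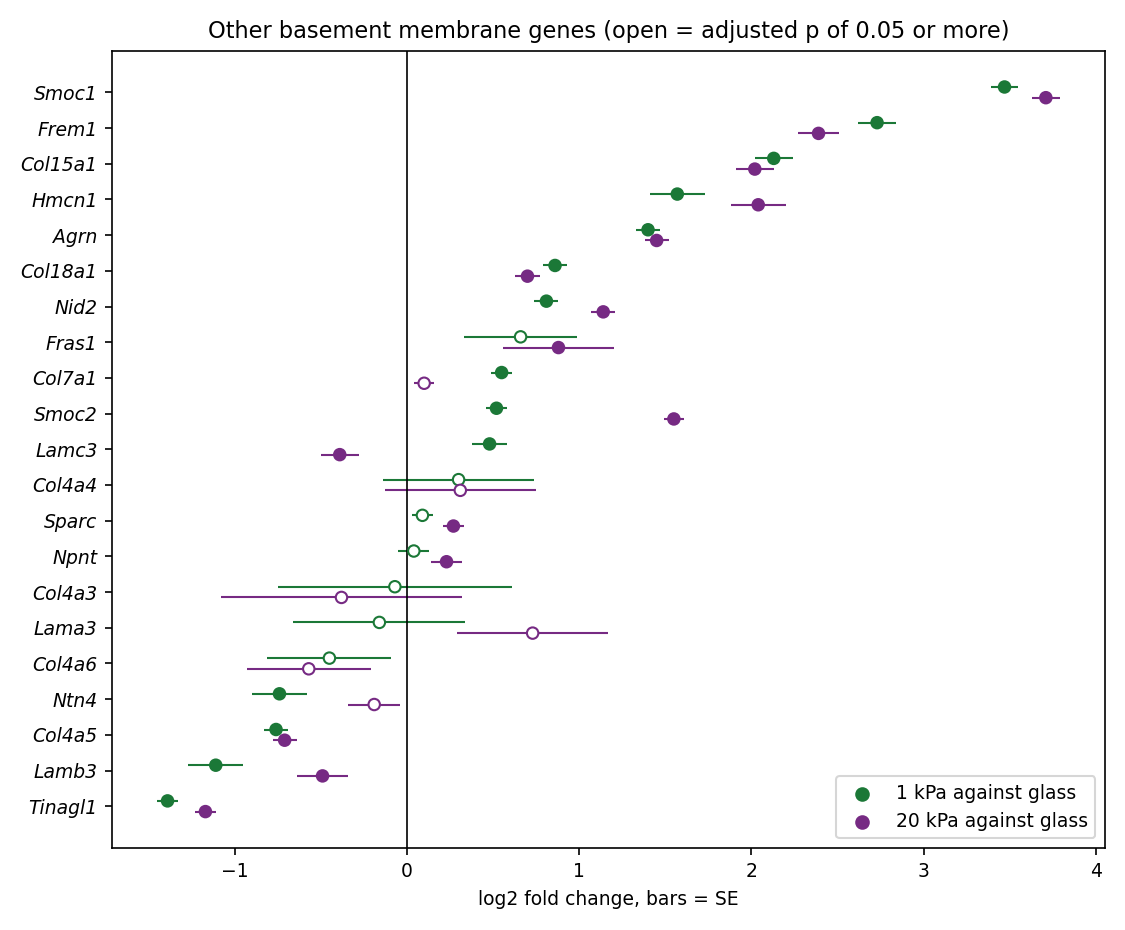
Log2 fold changes against glass with SE (horizontal axis) of other basement membrane genes on 1 kPa and on 20 kPa; open points have an adjusted p of 0.05 or more. Smoc1 and Frem1 lie farthest right and Tinagl1 farthest left.

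Further collagen IV, laminin and nidogen genes are named for their family, after their values were seen. Nid2, the second nidogen, was at 91.5 ± 8.7 CPM on 1 kPa, 115 ± 10 CPM on 20 kPa and 52 ± 0.35 CPM on glass. It rose on both gels, by 0.81 (SE 0.07) and 1.14 (SE 0.07), while Nid1 rose on 1 kPa alone by the test. Col4a5, the alpha 5 chain of collagen IV, fell where Col4a1 rose. It was at 64.1 ± 2 CPM on 1 kPa, 66.1 ± 4.5 CPM on 20 kPa and 108 ± 1.6 CPM on glass, and fell by 0.76 (SE 0.07) on 1 kPa and by 0.71 (SE 0.07) on 20 kPa. Col4a3, Col4a4 and Col4a6 had means under 2 CPM in every group and were not called in any comparison. Lamb3, a beta chain of the laminin that anchors keratinocytes, was at 5.18 ± 1.3 CPM on 1 kPa, 7.99 ± 0.14 CPM on 20 kPa and 11.2 ± 1.2 CPM on glass. It fell by 1.11 (SE 0.16) on 1 kPa and by 0.49 (SE 0.15) on 20 kPa. The 20 kPa call was lost with DESeq2 (adjusted p = 0.051), without glass replicate 1 (edgeR adjusted p = 0.11) and without 20 kPa replicate 1 (edgeR adjusted p = 0.065). Lamc3, a further gamma chain, was at 23.6 ± 0.47 CPM on 1 kPa, 12.9 ± 0.81 CPM on 20 kPa and 16.9 ± 0.36 CPM on glass. It rose by 0.48 (SE 0.10) on 1 kPa and fell by 0.39 (SE 0.11) on 20 kPa against glass. For Lamc3 the 20 kPa call was lost without 20 kPa replicate 2 (edgeR adjusted p = 0.057).

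Of 17 tested genes that process collagen chains, 11 rose and 2 fell on 1 kPa (median 0.24) and 9 rose and 3 fell on 20 kPa (median 0.15). The shares over all tested genes were 23.0% higher and 22.0% lower on 1 kPa, and 22.3% higher and 19.6% lower on 20 kPa. Loxl2, a lysyl oxidase that crosslinks collagen IV, was at 169 ± 6.5 CPM on 1 kPa, 109 ± 0.89 CPM on 20 kPa and 65.5 ± 0.31 CPM on glass. P4ha2, a prolyl hydroxylase subunit, was at 291 ± 6.8, 155 ± 3.5 and 129 ± 6.9 CPM in the same order, and the lysyl hydroxylase Plod1 at 344 ± 3.4, 243 ± 6.7 and 158 ± 7.9 CPM. Set against 1 kPa, the 20 kPa gel had 8 of the 17 lower and 1 higher, beside 9.92% lower and 8.94% higher over all genes. The 8 lower became 5 without 1 kPa replicate 2 or without 20 kPa replicate 2. The 1 higher became 0 without 1 kPa replicate 2 or 20 kPa replicate 1, and 2 with total counts, with either glass library left out or in a fit of the 2 gels alone. Against glass, the genes that fell became 1 on 1 kPa without glass replicate 1 or with the stricter filter, and 1 on 20 kPa with total counts or without 20 kPa replicate 2. Serpinh1, the collagen chaperone, was at 1900 CPM on 1 kPa, 1810 CPM on 20 kPa and 1900 CPM on glass, chosen after its values were seen.

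Of 20 tested receptors of the basement membrane, 4 rose and 10 fell on 1 kPa (median -0.18), and 4 rose and 9 fell on 20 kPa (median -0.20). Over all tested genes, 23.0% were higher and 22.0% lower on 1 kPa, and 22.3% higher and 19.6% lower on 20 kPa, so that the share of receptors that rose was near that of all genes. Without glass replicate 1 or without 1 kPa replicate 1, 6 fell on 1 kPa. Itga6 and Itga3 encode the alpha chains of the main laminin-binding integrins. Itga6 was at 30.3 ± 1.1 CPM on 1 kPa, 42.1 ± 1.2 CPM on 20 kPa and 96.8 ± 6.5 CPM on glass, and fell by 1.68 (SE 0.07) on 1 kPa and by 1.2 (SE 0.07) on 20 kPa. Itga3 was at 118 ± 3.7, 105 ± 0.6 and 244 ± 17 CPM in that order. Ddr1, a collagen receptor kinase, fell by 0.70 (SE 0.06) on 1 kPa and 0.73 (SE 0.06) on 20 kPa. The syndecan Sdc2 was called on 20 kPa, where it rose by 0.53 (SE 0.06), and was at 0.02 (SE 0.06) on 1 kPa.

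Enzymes that cut basement membrane proteins, with their inhibitors, had larger medians than the lists above. Of 14 tested, 12 rose and 2 fell on 1 kPa (median 1.23), and 12 rose and 1 fell on 20 kPa (median 0.97). Beside these, 23.0% of all tested genes were higher and 22.0% lower on 1 kPa, and 22.3% higher and 19.6% lower on 20 kPa. The stromelysin Mmp3 was at 6410 ± 68 CPM on 1 kPa, 1380 ± 1.4 CPM on 20 kPa and 29.1 ± 0.32 CPM on glass. Mmp2, a gelatinase that cleaves collagen IV, was at 1290 ± 18, 1080 ± 55 and 415 ± 16 CPM in that order, and the collagenase Mmp13 at 240 ± 11, 44.7 ± 4.3 and 0.504 ± 0.19 CPM. Timp3, an inhibitor that is bound to the matrix, was at 271 ± 6.2, 579 ± 43 and 1130 ± 90 CPM in that order. It fell by 2.06 (SE 0.07) on 1 kPa and 0.96 (SE 0.06) on 20 kPa. The inhibitors Timp1 and Timp2 are named after their values were seen. Timp1 rose by 1.29 (SE 0.06) on 1 kPa and 0.96 (SE 0.06) on 20 kPa. Timp2 fell by 0.51 (SE 0.06) on 1 kPa and was at -0.08 (SE 0.06) on 20 kPa.

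Some markers of other cells that make or carry basement membranes differed between the substrates as well. Over all tested genes, 23.0% were higher and 22.0% lower on 1 kPa, and 22.3% higher and 19.6% lower on 20 kPa. Of 12 endothelial markers, 7 rose and 1 fell on 1 kPa and 9 rose on 20 kPa, with summed levels of 87.5 to 95.8 CPM on 1 kPa, 113 to 118 CPM on 20 kPa and 71.5 to 74.1 CPM on glass, and none was at 0. Without Erg, the endothelial marker with the highest level, the sums were 58.2 to 65.1 CPM on 1 kPa, 55.7 to 56.1 CPM on 20 kPa and 27.6 to 28.7 CPM on glass. Pericyte and smooth muscle markers, 9 of 10 tested, summed to 774 to 794, 784 to 788 and 758 to 824 CPM in that order, with 5 higher and 2 lower on 1 kPa and 4 higher and 3 lower on 20 kPa. Higd1b was at 0 on glass. Without Pdgfrb these sums were 222 to 231 CPM on 1 kPa, 255 to 268 CPM on 20 kPa and 322 to 362 CPM on glass, with glass highest. Of 9 keratinocyte markers 6 were tested, of which 4 fell and 1 rose in each comparison with glass, and the sums were 42.3 to 47, 45.2 to 45.6 and 93.3 to 102 CPM, with Krt1 at 0 on 20 kPa and glass. Most of the summed excess on glass was in Perp, at 15.8 to 18.6 CPM on 1 kPa, 17.8 to 18.2 CPM on 20 kPa and 74.7 to 78.1 CPM on glass. Krt5, Krt14 and Dsp were also called lower on both gels, from 2.68, 3.13 and 1.16 CPM on glass. Trp63 went the other way, at 23.3 CPM on 1 kPa, 22.5 CPM on 20 kPa and 11.1 CPM on glass. These genes are named after their values were seen. Without Perp the keratinocyte sums were 26.5 to 28.4 CPM on 1 kPa, 27 to 27.8 CPM on 20 kPa and 18.6 to 23.7 CPM on glass, with glass lowest. Leaving out the gene with the highest level of a list was chosen after the values were seen.

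Schwann cell markers summed to 22.1 to 24.1 CPM on 1 kPa, 31.8 to 32.7 CPM on 20 kPa and 19.3 to 20.9 CPM on glass, with 4 of 7 tested higher and 1 lower on 1 kPa, and 6 higher and 1 lower on 20 kPa. Without S100b, the highest of the list, the Schwann cell sums were 16.9 to 18.2, 16.8 to 17.5 and 14.6 to 15.6 CPM in that order. The ranges of both gels then overlapped. Skeletal muscle markers summed to 25.3 to 27.2, 16.6 to 18.9 and 11 to 11.6 CPM, with 3 of 4 tested higher on each gel. Without Acta1, which was not called on either gel, the muscle sums were 12.9 to 14.7, 7.22 to 8.38 and 0.832 to 1.22 CPM. Pax7 was at 0 in all groups, Myf5 and Ckm on 20 kPa and glass, and Myod1 on glass. Adipocyte markers summed to 95.3 to 106, 56.7 to 59.6 and 20.9 to 25.1 CPM, with all 4 tested higher on each gel. Lep was at 0 in all groups, and Adipoq and Cidec were at 0 on glass. Without Fabp4 the adipocyte sums were 34.9 to 38.8, 30.4 to 31.6 and 14.8 to 16.1 CPM. Macrophage markers summed to 12.3 to 14.9, 11.5 to 13.1 and 10.6 to 12.9 CPM (7.26 to 7.34, 6.25 to 7.7 and 7.86 to 9.16 CPM without Lyz2, with glass highest), with 1 of 4 tested higher on each gel and 1 lower on 20 kPa; without glass replicate 1 none was higher on 20 kPa, and without glass replicate 2 or 20 kPa replicate 2 none was lower. Beside these counts, 23.0% of all tested genes were higher and 22.0% lower on 1 kPa, and 22.3% higher and 19.6% lower on 20 kPa. The share of macrophage markers that rose was near that of all genes. The part of these cells in the changes of Col4a1, Col4a2, the laminins, Nid1 and Hspg2 was not tested.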

How the data were processed

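The deposited values are the authors' raw counts per gene. Per the submitters' processing notes, the tools were featureCounts, STAR 2.7.10b, cutadapt and Trim Galore, and the build mm10; the annotation, settings and strand use are not given in those notes or the labels. Of the identifiers, 91.3% took a symbol from GENCODE M21 (GRCm38, the assembly of mm10); the table's identifiers of the 10 genes carry later versions, so positions and lengths may differ from those used in counting. Genes were filtered with filterByExpr, scaled by TMM, and fitted with edgeR 4.0.16 (glmQLFit, glmQLFTest, R 4.3.3) on all 6 libraries. Substrate was the model's sole factor, leaving 3 residual degrees of freedom. The estimate of a gene's spread also drew on that of the other tested genes. Adjusted p is Benjamini-Hochberg over 16093 genes. Errors of CPM are SDs of 2 libraries, and the SE of a log2 fold change is its size over the square root of F. Levels of different genes were compared per kilobase of union exon length. The method was tested on simulated data. Alternatives were DESeq2 1.42.0, limma-voom (limma 3.58.1), other scalings and filters, a replicate block, fits of 2 groups and each library left out. The members, lists and tests were chosen with earlier results of these data known. From each other list, up to 4 genes with the smallest p over the 3 substrates are named, and the 3 genes nearest a member in centred log2 CPM; exceptions are marked in the text. Promoter windows are from RefSeq; those of Lama4 and Lamc1 are not shown. A gene of the other basement membrane list is counted with it but not reported by itself here.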

Additional observations from a re-analysis of the deposited data

How the results depend on the processing

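Of the 420 repeats of the member fold changes (10 genes, 3 comparisons, 14 settings), 399 kept direction and side of the threshold. The calls of Col4a1, Col4a2, Lama2, Lama5, Lamb1, Lamb2 and Lamc1 against glass were kept in all 14 settings on both gels. Col4a1 ranged from 0.53 to 0.63 on 1 kPa and Lamb1 from 0.52 to 0.66. The 7 repeats that changed sign were of uncalled values: Hspg2 on 1 kPa against glass was 0.02 with the stricter filter and 0.05 without glass replicate 1 (-0.07 to 0.05 over single libraries left out); Lama4 on 20 kPa against glass was 0 with total counts, 0.02 without glass replicate 1 and 0.01 without 20 kPa replicate 2 (-0.07 to 0.02); Lama2 on 20 kPa against 1 kPa was 0.02 without 1 kPa replicate 2 and 0.07 without 20 kPa replicate 2 (-0.22 to 0.07). The least stable comparison was 20 kPa against 1 kPa. It had 3035 calls with edgeR, 2022 with DESeq2 and 1680 to 3824 with 1 library left out (1680 to 1910 for a gel library), and the 5 lower members became 3 with total counts and 2 to 6 with 1 library left out (2 to 3 for a gel library). The cause was not tested. The replicate block changed no call of a member. Deviations of same-numbered libraries had correlations of -0.03 to -0.02, which shows no shared effect of replicate number. With 2 libraries per group, these values cannot tell whether same-numbered libraries had a common origin. The block left 2862 calls for 20 kPa against 1 kPa. Glass replicate 1 was above glass replicate 2 for 9 of the 10 members. The 2 libraries per group limit the precision of every value, and Lama2 and Lama5, the genes with the fewest counts, had the largest SEs.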
